A study of Mus musculus with 9 samples.

Results

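Platelet and megakaryocyte transcripts were followed through the sorted monocytes/macrophages as 10 listed genes of the 53801 in the count files: Pf4, Ppbp, Itga2b, Itgb3, Gp5, Gp6, Gp9, Treml1, Tubb1 and Alox12. All 10 were found by matching the Ensembl identifiers to GENCODE M21 symbols, all 10 had counts in every blood library, and none has an exon that overlaps another gene. The data cover 3 sham blood, 3 stroke blood and 3 stroke brain libraries from male C57BL/6J mice that the series' text gives as 9 weeks old. Stroke was dMCAO, in which the distal branch of the left middle cerebral artery and the left common carotid artery were closed for good, and stroke blood and brain were taken 5 days later, while the sources used here name no day for sham blood. A blood library came from 1 mouse and a brain library from the pooled ipsilesional hemispheres of 5 mice. All cells were sorted as CD11c-Ly6G-CD11b+CD45high, from Ficoll-separated mononuclear cells of cardiac blood or, after perfusion with saline, from a Percoll gradient of the dissociated brain. Blood was therefore never perfused and brain was, so tissue, perfusion and cell preparation cannot be told apart in any comparison of brain with blood.

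Platelets are fragments of megakaryocytes without a nucleus, and they carry RNA inherited from those cells. They hold chemokines in alpha granules, bind fibrinogen through the integrin of the chains Itga2b and Itgb3, and bind von Willebrand factor and collagen through glycoprotein receptors. In blood they also adhere to monocytes, so a sort for monocyte surface markers can take up platelets attached to them. Of the 10 genes, Pf4 is also known as a transcript of tissue macrophages, and Itgb3 as the beta chain of a second integrin, which macrophages make with another alpha chain.

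The libraries held between 18475118 and 22623578 counts, so that 3 counts, taken as the detection floor of a library, were worth 0.133 to 0.162 counts per 1000000 counts of the library (CPM). All 8 monocyte markers, among them Csf1r, Ccr2 and Itgam, had counts above that floor in every library. Most of their sum was Lyz2, at 79520 to 115600 CPM in blood and 38690 to 42810 CPM in the brain, whereas Csf1r was at 2091 to 3204 CPM in blood and 2810 to 3934 CPM in the brain. Sham blood replicate 1 stood apart from the other blood libraries in the genes described here. The 10 genes summed to 27.9 CPM in it, against 552.5 and 784.9 CPM in the other sham libraries and 367.5 to 485.9 CPM in stroke blood. Per gene its level was 6.40-fold (Itgb3) to 45.9-fold (Gp5) below the mean of sham blood replicates 2 and 3. Of 8769 genes with a mean of at least 5 CPM in the other blood libraries, 59 (0.673%) were at least 4-fold lower in it than in each of them, and 1 gene was as much higher. Among those 59 were 9 of the 10 platelet genes, all but Itgb3. Erythroid markers moved with them, at 1326 CPM in sham blood replicate 1 and 14400 to 35640 CPM in the other blood libraries. The monocyte markers showed no such drop, with Ccr2 at 1779 CPM in sham blood replicate 1 and 1552 to 2343 CPM in the other blood libraries, and Csf1r at 2552 CPM there. Each result that uses sham blood is therefore given with and without that library.

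The genes of the chemokines Ppbp and Pf4 are neighbours on chromosome 5 of GRCm38, on the plus strand, Ppbp from 90768518 to 90770063 and Pf4 from 90772435 to 90773383, with 2371 bases between them. Their upstream sequences are shown because their levels were alike in blood and far apart in the brain, and that of Gp5 (chromosome 16, minus strand, 30307686 to 30310779) because it had no count in the brain. The letters come from RefSeq promoters of GRCm38.p6 and end at the base before the start site. They run 5′ to 3′ on the strand of the gene. Capitals mark, on either strand, GGAAGT or GGAAGC, which occur in ETS factor sites, and AGATAA or TGATAA, which occur in GATA factor sites. Other forms of these sites were neither searched nor marked.
Ppbp, chr5:90768268-90768517: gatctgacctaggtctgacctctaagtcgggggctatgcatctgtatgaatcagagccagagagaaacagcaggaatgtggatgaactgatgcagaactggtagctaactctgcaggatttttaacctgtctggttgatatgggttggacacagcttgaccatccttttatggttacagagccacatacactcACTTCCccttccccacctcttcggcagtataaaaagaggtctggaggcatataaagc
Pf4, chr5:90772185-90772434: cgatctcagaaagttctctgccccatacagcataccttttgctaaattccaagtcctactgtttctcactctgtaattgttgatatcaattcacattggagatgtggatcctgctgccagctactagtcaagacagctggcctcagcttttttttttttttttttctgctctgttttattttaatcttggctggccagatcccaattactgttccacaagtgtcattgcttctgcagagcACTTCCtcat
Gp5, chr16:30310782-30311031: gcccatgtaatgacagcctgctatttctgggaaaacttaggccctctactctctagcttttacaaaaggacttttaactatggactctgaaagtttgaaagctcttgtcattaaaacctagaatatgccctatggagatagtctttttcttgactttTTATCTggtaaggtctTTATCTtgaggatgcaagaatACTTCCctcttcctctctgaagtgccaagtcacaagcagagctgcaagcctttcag
Pf4, chr5:90772455-90772484, downstream of the start, with the GATA letters in capitals: actgggcaggcagtgaAGATAAaacgtgct
The windows searched ran from 250 bases before to 50 bases after the start, and 9 of the 10 genes had one; Itgb3 had none in the table. ETS letters stood in 7 of the 9 (Pf4, Ppbp, Itga2b, Gp5, Gp6, Gp9 and Tubb1), and in 43.6% of the 32851 promoters searched. The promoters searched were not all those of the table. GATA letters stood in 3 of the 9 (Pf4, Gp5 and Gp6), against 18.6% of the promoters searched. The RUNX letters TGTGGT were found in 1 of the 9 (Gp9), against 16.8%, and the NFE2 letters TGAGTCA in 0 of the 9, against 5.2%. The matches describe letters in these windows and are not binding sites. The neighbours Ppbp and Pf4 both held ETS letters upstream, first base at -57 and -10, although 1 of them was called lower in the brain and the other was not.

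The first comparison asks how the transcripts changed between monocytes in the blood and macrophages in the brain after stroke. Of the 10 genes, 9 were lower in brain macrophages than in stroke blood monocytes, with stroke blood 3.31-fold higher for Itgb3 and from 28.9-fold to at least 269.7-fold higher for the other 8. Pf4, the platelet chemokine that tissue macrophages also transcribe, did not pass the test, and it made up most of what was left in the brain. Of all 13189 genes tested, 7.86% were called lower and 13.1% higher (absolute log2 fold change above 1 and adjusted p below 0.05 in edgeR, 3 libraries against 3). A gene enters this test if enough libraries pass a minimum level, and 7 of the 10 genes would not have entered on their brain levels alone. For Gp5, Gp6, Treml1, Tubb1 and Alox12, 0 brain libraries reached that level, so their direction followed from entering the test. Ppbp and Itga2b reached it in 2 brain libraries, so their direction was not fixed in this way. The count is a description. The median log2 fold change of the 10 genes was -6.36, also with genes under the floor set to their bound, against 0.06 over all genes tested. Erythroid markers moved the same way, with 11 of 12 tested called lower in the brain, and their part in the result was not tested. Of the other marker lists, 2 of 8 monocyte genes were lower, and 5 of 7 neutrophil genes were higher and 1 lower. Of the T and NK cell genes 1 of 7 was higher, and 0 of 4 B cell genes and 0 of 1 basophil gene were called. Of the endothelial genes 2 of 3 were higher and 1 lower, the lower being Vwf, which is also a platelet granule gene. In bulk RNA, fewer cells or platelets of a type and less RNA in each cannot be told apart.

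**Figure D1:**
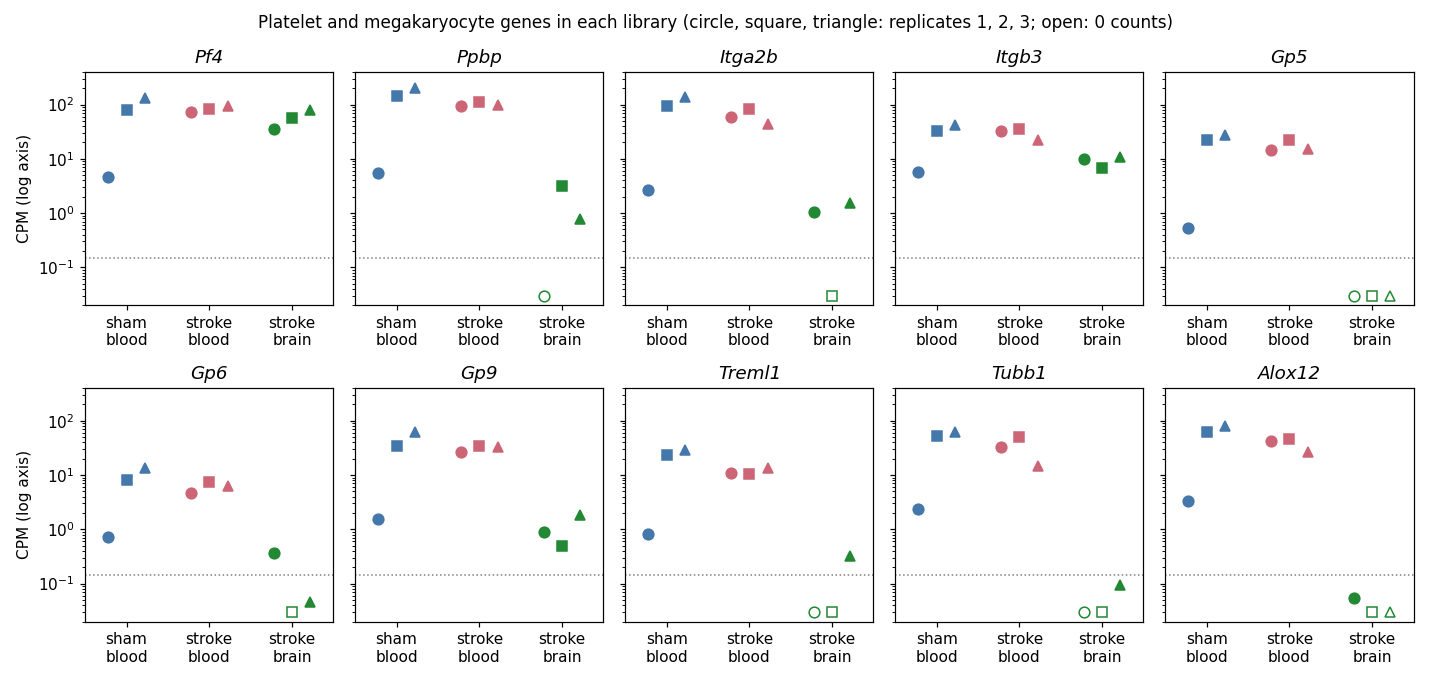
CPM of the 10 genes in each library on a log axis, with circles, squares and triangles for replicates 1, 2 and 3; open symbols at the foot of the axis are libraries with 0 counts, and the dotted line is the mean level that 3 counts stand for. Sham blood replicate 1 lies below the other blood libraries in every panel, and in the brain only Pf4 reaches the stroke blood range.

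The 2 chemokines parted in the brain. Pf4 (ENSMUSG00000029373), a heparin-binding chemokine of alpha granules, was at 72.9, 84.2 and 95.5 CPM in stroke blood and at 35.0, 56.5 and 78.7 CPM in the brain. The highest brain library lay above the lowest blood library, so the groups overlapped. The log2 fold change, brain over stroke blood, was -0.72 (SE 0.28, 95% interval -1.35 to -0.10, edgeR adjusted p = 0.0757), and without brain replicate 3 it was -1.03 (edgeR adjusted p = 0.0298), which passed. Over all alternatives that adjusted p ran from 0.0238 to 0.483. Ppbp (ENSMUSG00000029372), the precursor of the neutrophil-attracting peptide NAP-2, was at 95.7, 112.4 and 96.4 CPM in stroke blood and at 0, 3.09 and 0.787 CPM in the brain, which were 0, 70 and 17 counts. Every brain library was far below every blood library. Its mean fell from 101.5 ± 9.44 CPM to 1.29 ± 1.61 CPM (SD, n = 3), 78.5-fold (log2 fold change -6.40, SE 0.80, edgeR adjusted p = 0.000496). Counts of Pf4 over counts of Ppbp gave 0.572 to 0.991 over the 6 blood libraries, sham blood replicate 1 included. In brain replicates 2 and 3 the ratio was 18.3 and 100.0, and brain replicate 1 had 656 Pf4 counts and no Ppbp count.

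Markers of border-associated macrophages were higher in the brain libraries along with this remaining Pf4. Leaving Pf4 out of that list, 5 of its 6 genes were tested and all 5 were called higher (Lyve1 was not tested), and the 6 summed to 161.0, 280.2 and 416.4 CPM in the brain and 27.7 to 43.7 CPM in blood. Mrc1, the mannose receptor of these macrophages, had 608, 1527 and 1966 counts in the brain, and Lyve1, a hyaluronan receptor that did not pass the filter on low counts, had 4, 128 and 301 counts there and at most 1 in a blood library. Brain replicate 1 was the lowest and brain replicate 3 the highest in Pf4, Mrc1 and Lyve1 alike. The summed microglial markers had that order too, at 1348, 1943 and 3653 CPM, as had the monocyte, T and NK cell and erythroid sums. The neutrophil, B cell, endothelial and basophil sums had another order. The part of any of these cells in the Pf4 level was not tested. The 70 Ppbp counts of brain replicate 2 came with no count of Itga2b, Gp5, Gp6, Treml1, Tubb1 or Alox12. That library also held 231 counts of Prss34 and 88 of Mcpt8, proteases of basophils, against 0 to 9 and 0 to 25 in the other 8 libraries. The rest of that list, which also holds mast cell genes, did not single out this library. Cpa3 had 4, 37 and 161 counts in brain replicates 1, 2 and 3, Gata2 had 60, 49 and 21, Fcer1a had 8, 6 and 0, and Ms4a2 had 0, 7 and 0. The part of such cells in the Ppbp of brain replicate 2 was not tested.

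The 2 chains of the fibrinogen receptor also parted. Itga2b (ENSMUSG00000034664; chromosome 11, 102453297 to 102470122, minus strand), the alpha IIb chain that is restricted to the megakaryocyte lineage and some progenitor and mast cells, was at 60.2, 82.5 and 43.7 CPM in stroke blood. In the brain it had 20, 0 and 33 counts, or 1.07, 0 and 1.53 CPM. The groups lay far apart, 71.9-fold in their means (log2 fold change -6.33, SE 0.74, edgeR adjusted p = 0.00035). Itgb3 (ENSMUSG00000020689; chromosome 11, 104608000 to 104670476, plus strand), the beta 3 chain, was at 33.2, 35.6 and 22.3 CPM in stroke blood and at 10.0, 6.81 and 10.7 CPM in the brain. It too was lower in every brain library, but only 3.31-fold in the means (log2 fold change -1.88, SE 0.26, edgeR adjusted p = 0.000944). Counts of Itgb3 over Itga2b gave 0.304 to 0.553 in 5 blood libraries, 2.20 in sham blood replicate 1, and 9.40 and 7.03 in brain replicates 1 and 3. Brain replicate 2 had 154 counts of Itgb3 and none of Itga2b.

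The glycoprotein receptors were lower in every brain library than in every stroke blood library, as were all 9 genes called, where 17.3% of all genes tested had groups apart in that direction. For Gp5, Gp6, Treml1, Tubb1 and Alox12, 0 brain libraries and all 3 stroke blood libraries reached the filter's minimum level. Groups apart and lower thus followed for them from entering the test, and the count is a description. Gp5 (ENSMUSG00000047953), which joins Gp9 in the von Willebrand factor receptor, was at 14.7, 22.4 and 14.9 CPM in stroke blood and had 0 counts in all 3 brain libraries. Against a floor of 3 counts per library, stroke blood was at least 120.5-fold higher (edgeR adjusted p = 4.15e-05). Gp9 (ENSMUSG00000030054; chromosome 6, 87778072 to 87779768, plus strand) was at 26.6, 34.1 and 33.1 CPM in stroke blood and kept 17, 11 and 40 counts in the brain, or 0.906, 0.486 and 1.85 CPM. With Pf4 and Itgb3 it was 1 of only 3 of these genes that would have entered the test on its brain levels alone. The means were 28.9-fold apart (log2 fold change -5.00, SE 0.43, edgeR adjusted p = 7.12e-05). Gp6 (ENSMUSG00000078810; chromosome 7, 4363965 to 4397744, minus strand), the collagen receptor that signals through the Fc receptor gamma chain, was at 4.63, 7.37 and 6.26 CPM in stroke blood and had 7, 0 and 1 counts in the brain. That put the means 43.6-fold apart, with a log2 fold change of -5.63 (SE 0.85, edgeR adjusted p = 0.00137).

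The last 3 genes act inside the platelet or its granule membrane. Treml1 (ENSMUSG00000023993; chromosome 17, 48359916 to 48367176, plus strand), a receptor stored in alpha granules and shown on activated platelets, was at 11.2, 10.7 and 13.6 CPM in stroke blood and had 0, 0 and 7 counts in the brain. Its fold rests on those 7 counts of brain replicate 3, and the log2 fold change of -6.81 (SE 0.81, edgeR adjusted p = 0.000398) ran from -10.98 to -6.21 with 1 library left out. Tubb1 (ENSMUSG00000016255; chromosome 2, 174450695 to 174457882, plus strand), the beta 1 tubulin of the platelet's microtubule ring, was at 33.2, 50.5 and 14.7 CPM in stroke blood and had 0, 0 and 2 counts in the brain. Stroke blood replicate 3 held the least Tubb1 and the most Pf4 of its group. The mean of Tubb1 in stroke blood was at least 228.0-fold higher than the brain's floor (edgeR adjusted p = 4.3e-05). Alox12 (ENSMUSG00000000320; chromosome 11, 70241457 to 70255353, minus strand), the platelet 12-lipoxygenase, was at 43.0, 46.2 and 27.1 CPM in stroke blood and had a single count in the 3 brain libraries together. For Alox12 that bound was at least 269.7-fold (edgeR adjusted p = 4.85e-06). With each library left out in turn, 9 or 10 of the 10 genes were called, the tenth being Pf4.

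**Figure D2:**
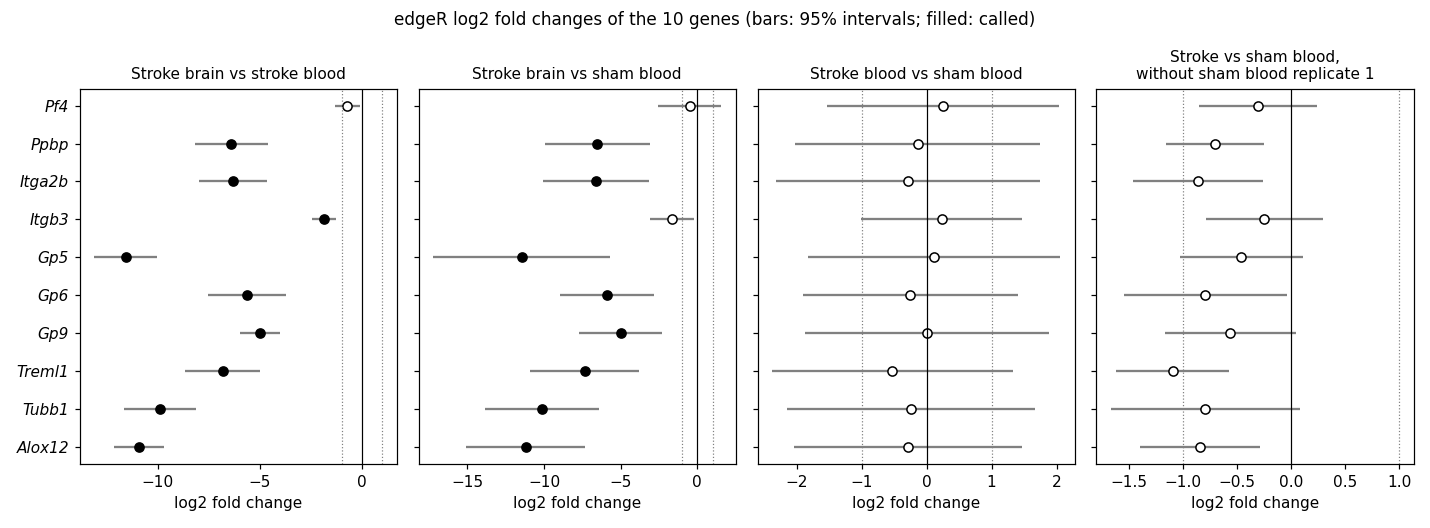
edgeR log2 fold changes of the 10 genes with 95% intervals as bars, filled where called, for brain against stroke blood, brain against sham blood, and stroke against sham blood with and without sham blood replicate 1; the 4 horizontal axes differ, and dotted lines mark -1 and 1. In the brain panels Gp5, Tubb1 and Alox12 are fitted values that depend on a prior count and are no bounds; in stroke against sham blood the intervals of all 10 genes include 0 with sham blood replicate 1 in the fit.

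The make-up of the transcripts differed between blood and brain as well as their amount. Of the counts of the 10 genes, Ppbp took 23.1% to 26.2%, Pf4 14.7% to 26.0%, Itga2b 11.9% to 17.4% and Itgb3 5.29% to 8.41% in the 5 blood libraries other than sham blood replicate 1. In the brain Pf4 took 73.8% (95% Wilson interval 70.8 to 76.6), 84.5% (82.6 to 86.2) and 83.7% (82.0 to 85.2). Itgb3 took 21.2%, 10.2% and 11.4% there, and no other gene more than 4.63%. The share of Pf4 in the brain was thus far outside its range in blood in all 3 libraries. Sham blood replicate 1 had a make-up like that of the other blood libraries in Pf4, at 16.6% (13.8 to 19.8), but 20.8% of its 573 counts were Itgb3 (17.7 to 24.3), a share near that of brain replicate 1. Intervals cover counting error only, since PCR copies were not told apart from molecules.

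**Figure D3:**
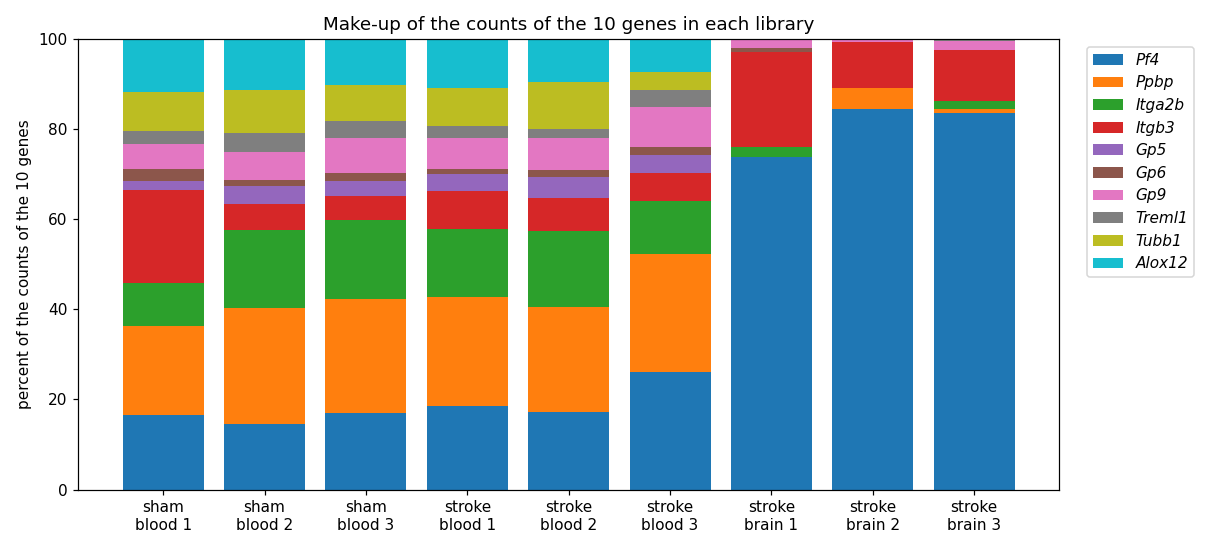
Stacked bars of the percent that each of the 10 genes takes of their summed counts in each of the 9 libraries. Pf4 takes 73.8% to 84.5% of the brain bars, and Ppbp, Itga2b, Alox12 and Tubb1 nearly vanish from them. Among the blood bars, that of sham blood replicate 1 has the largest Itgb3 segment. That of stroke blood replicate 3 has the largest Pf4 segment (26.0%) and the smallest Tubb1 segment (3.99%).

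Per kilobase of exon, the order of the levels in stroke blood was Pf4 at 116.8 CPM per kilobase, Ppbp at 93.8, Gp9 at 35.5, Tubb1 at 23.3, Itga2b at 11.4, Alox12 at 9.49, Treml1 at 8.42, Gp5 at 7.88, Itgb3 at 5.15 and Gp6 at 1.03. The ranges of the 3 libraries were apart only between Ppbp and Gp9, between Gp5 and Itgb3 and between Itgb3 and Gp6, so the other neighbours in this order did not differ beyond their spread. Sham blood without replicate 1 had Ppbp at 156.9 and Pf4 at 148.9 CPM per kilobase, with overlapping ranges, ahead of Gp9 at 53.9. In the brain Pf4 stood alone at 78.7 ± 30.3 CPM per kilobase, followed by Itgb3 at 1.56, Gp9 at 1.23 and Ppbp at 1.19, whose ranges overlapped. Itgb3 thus stood ninth of the 10 genes in stroke blood and second in the brain, although its level fell.

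The second comparison asks whether stroke changed the transcripts in blood monocytes. None of the 10 genes was called with all libraries, and the sham group was too uneven to show changes of moderate size. edgeR called 1 of 12664 genes (0.0079%), and 0 of the 10 genes reached an unadjusted p below 0.05, which 5.97% of all genes did on the lower and 6.51% on the higher side, while DESeq2 called 0 of them too. Log2 fold changes, stroke over sham blood, ran from -0.53 (Treml1) to 0.25 (Pf4), with standard errors of 0.55 to 0.90 and edgeR adjusted p from 0.805 to 0.998. For Ppbp, at 5.50, 141.4 and 198.5 CPM in sham blood, the 95% interval ran from -2.02 to 1.75. The intervals of all 10 genes reached beyond -1 and 1, so a 2-fold difference in either direction was not excluded here.

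Without sham blood replicate 1 all 10 log2 fold changes were negative, with a median of -0.75 against -0.03 over the 13180 genes then tested. Still 0 of the 10 genes was called, where edgeR called 15 genes lower (0.114%). An unadjusted p below 0.05 was reached by 5 of the 10 (Ppbp, Itga2b, Gp6, Treml1 and Alox12), against 7.81% of all genes on the lower side. Treml1 was at 23.2 and 28.8 CPM in sham blood replicates 2 and 3 and at 10.7 to 13.6 CPM in stroke blood, with no overlap (log2 fold change -1.09, SE 0.23, edgeR adjusted p = 0.099). Ppbp went from 141.4 and 198.5 CPM to 95.7 to 112.4 CPM, also without overlap (-0.70, SE 0.20, edgeR adjusted p = 0.161), and Alox12 from 62.5 and 80.2 CPM to 27.1 to 46.2 CPM (-0.84, SE 0.25, edgeR adjusted p = 0.168). In 6 of the 10 genes the 3 stroke libraries lay below both remaining sham libraries, against 20.6% of all genes. Pf4 at -0.31 and Itgb3 at -0.25 were the genes nearest to 0, and their groups overlapped. Sham blood replicate 1 was set apart by these same genes, and leaving it out raises their sham means. The signs and counts without it therefore describe the remaining libraries and are no test. The 10 genes also varied together over the blood libraries, so they are no separate observations. Markers of several other cells were lower in stroke blood in the fit without sham blood replicate 1, while others were higher. Log2 fold changes were positive in 7 of 8 monocyte genes (median 0.11) and 4 of 4 border-associated macrophage genes tested (median 0.39). The erythroid markers were at 31490 and 35640 CPM in these sham libraries and 14400 to 18950 CPM in stroke blood, with negative log2 fold changes in 13 of 13 genes tested and a median of -1.19. Log2 fold changes were also negative for 5 of 5 B cell genes (median -1.68), 7 of 8 neutrophil genes (median -1.23) and 7 of 7 T and NK cell genes (median -0.46), and the part of any of these cells in the platelet values was not tested.

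**Figure D4:**
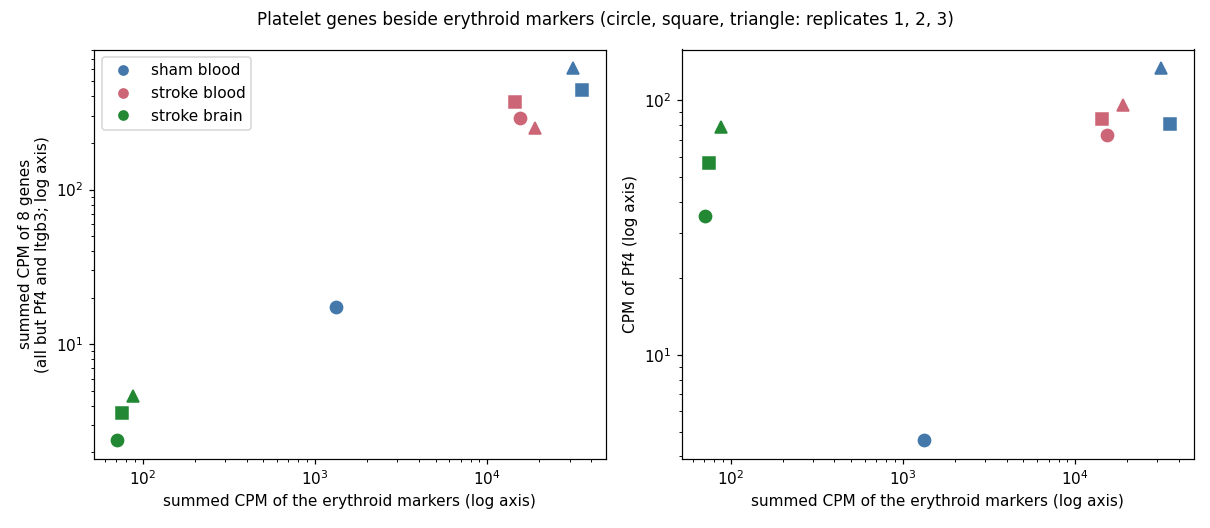
Each point is a library, with the summed CPM of the erythroid markers on the horizontal log axis and, on the vertical log axes, the summed CPM of 8 platelet genes (left) or the CPM of Pf4 (right); colours give the groups and symbols the replicates. On the left, sham blood replicate 1 lies low on both axes, between the other blood libraries and the brain; on the right, the brain libraries keep Pf4 at 35.0 to 78.7 CPM with erythroid sums of 71.0 to 87.6 CPM.

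Set beside the erythroid markers, the 8 platelet genes other than Pf4 and Itgb3 summed to 13.2, 12.3 and 19.4 CPM per 1000 CPM of erythroid markers in sham blood replicates 1, 2 and 3. In stroke blood the values were 18.8, 25.4 and 13.2, so the groups overlapped. Sham blood replicate 1, with the lowest level of both, did not stand apart in this ratio. In the brain the 8 genes summed to 2.40, 3.58 and 4.63 CPM and the erythroid markers to 71.0, 75.1 and 87.6 CPM.

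Set against sham blood, 8 of the 10 genes were lower in the brain (edgeR, 13020 genes tested, of which 3.67% were called lower), and the groups of 7 did not overlap, against 14.2% of all genes. As against stroke blood, 7 of the 10 genes would not have entered this test on their brain levels alone. For Gp5, Gp6, Treml1, Tubb1 and Alox12, with 0 brain libraries at the minimum level, the direction followed from entering it. Ppbp and Itga2b reached that level in 2 brain libraries. The count called and the count without overlap are therefore a description. Of the erythroid markers 9 of 10 tested were called lower as well, and of the B cell markers 4 of 5, and their part in the result was not tested. The 3 comparisons share their libraries pairwise and are no independent repeats of each other. The exceptions were Pf4 (log2 fold change -0.48, SE 0.89, edgeR adjusted p = 0.739) and Itgb3 (-1.65, SE 0.61, edgeR adjusted p = 0.0968, and 0.00391 to 0.276 over its alternatives). Without sham blood replicate 1, Itgb3 was called as well (-2.13, SE 0.26, edgeR adjusted p = 0.00391, where 3.3% of all genes were called lower), and Pf4 was at -1.04 (edgeR adjusted p = 0.104), with its brain libraries all below the 80.9 and 133.7 CPM of the remaining sham libraries. Sham blood replicate 1 was set apart by these same genes, so the values without it are a description. The number called rested on single libraries: it was 9 without sham blood replicate 1, 3 without sham blood replicate 2, 2 without sham blood replicate 3, and 3 without brain replicate 2 or brain replicate 3. Against the floor, sham blood was at least 115.0-fold higher in Gp5, 275.3-fold in Tubb1 and 338.5-fold in Alox12.

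A further 64 genes known from platelets and megakaryocytes were set beside the 10, of which 58 were tested between brain and stroke blood, 17 were lower and 12 higher (29 of 58, against 21% of all genes called in either direction). Their median log2 fold change was -0.03. Those lower included surface receptors, granule proteins and contractile proteins, and those higher included several genes that microglia and macrophages also transcribe. Both chains that complete the von Willebrand factor receptor were among the lower genes, Gp1ba at -4.75 (SE 0.66, edgeR adjusted p = 0.000888) and Gp1bb at -4.18, though exons of Gp1bb overlap Sept5 on the same strand and its count is uncertain. Of the 15 receptor genes tested, 5 were lower and 3 higher, against 7.86% and 13.1% of all genes. Clec1b, the podoplanin receptor CLEC-2, was at -5.64, and its exons overlap those of Clec9a. Esam, a junctional adhesion molecule, was at -2.81. P2ry12, the ADP receptor of platelets and a marker of microglia, was higher by 3.50 (SE 0.42, edgeR adjusted p = 0.000431), as were the laminin receptor chain Itga6 (2.17) and the tetraspanin Cd9 (1.01). All 9 microglial markers, P2ry12 among them, were called higher in the brain, and their part in these rises was not tested. Exons of P2ry12, Cd9, Rasgrp2, Ptgs1, F13a1, Thbs1, Pdgfa, Mylk, Plek, P2ry1, Tbxas1 and Runx1 overlap a gene on the other strand, and without a stated strand setting reads of both cannot be told apart.

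Of the 14 genes for granule cargo, 5 were lower and 5 higher in the brain, where 7.86% of all genes tested were called lower and 13.1% higher. Von Willebrand factor (Vwf) fell from 24.4 ± 4.28 to 2.61 ± 0.592 CPM (log2 fold change -3.37), and clusterin (Clu) and neurogranin (Nrgn) were at -3.10 and -5.71. Multimerin 1 (Mmrn1) had 0 brain counts and was at least 52.1-fold lower, and the coagulation factor chain F13a1, which monocytes make in quantity, was at -1.06. On the other side stood thrombospondin 1 (Thbs1), at 2240 ± 944 CPM in the brain against 57.8 ± 14.3 CPM in stroke blood (5.12), the matrix protein Sparc (10.53), Serpine2 (4.81) and the growth factors Pdgfa (2.84) and Pdgfb (2.74). Sparc had at most 9 counts in a stroke blood library and is also a microglial marker. The granule proteins were thus split between both directions, where Ppbp was lower and Pf4 not called.

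Of the 10 genes tested for intracellular signaling, 3 were lower and 3 higher, against the same 7.86% and 13.1%. Gng11, a G protein gamma chain, was at 47.7, 62.2 and 57.2 CPM in stroke blood and 1.55, 0.442 and 1.06 CPM in the brain (-5.94), the sphingosine 1-phosphate exporter Mfsd2b was at -5.45, and Rasgrp2, the activator of Rap1 upstream of the fibrinogen receptor, was at -1.34. Ptgs1, the cyclooxygenase of platelets, was higher by 2.19, Lat by 1.32 and Prkcq by 1.27. Among 9 cytoskeletal and granule biogenesis genes tested 3 were called, against 21% of all genes. The myosin light chain Myl9 (-6.39) and its kinase Mylk (-2.58) were lower and Plek was higher (1.03). Myl9 had 24, 26 and 0 counts in the brain. Of the genes named here, Cd9, Lat and Plek were not called with upper-quartile scaling, and F13a1 and Mylk were not called with scaling by library size only. Other settings also removed calls. Cd9 was not called with RLE scaling, a filter at a mean of 50 counts or the replicate number as a block. In a single fit of all 9 libraries Cd9, Plek, Esam and Mylk were not called. With 1 library left out, Cd9, Lat, Plek, F13a1 and Mylk each lost their call in at least 1 fit.

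Of the 10 megakaryocyte transcription factors, all tested, 2 were lower in the brain and 0 were higher, a share near the 21% of all genes called in either direction. Nfe2, the factor of late megakaryocyte maturation, was at -1.49 (SE 0.18, edgeR adjusted p = 0.00043). It stayed at 124 ± 13.9 CPM in the brain. Gata1, the main factor of the lineage, was low in both groups, at 3.12 CPM in stroke blood and 3.58 CPM in the brain (log2 fold change 0.05, SE 0.73, edgeR adjusted p = 0.962). Fli1 (0.23), Runx1 (0.66) and Gfi1b (0.43) did not pass the test.

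Between stroke and sham blood 0 of 58 tested genes of these lists were called by edgeR. DESeq2 called 2, among them Thbs1, which was lower in stroke blood (log2 fold change -2.53). Of all 23335 genes in that fit, DESeq2 called 65 higher and 70 lower. Thbs1 was at 472.8, 325.8 and 220.4 CPM in sham blood and 51.4, 74.2 and 47.8 CPM in stroke blood, without overlap (edgeR -2.52, SE 0.30, adjusted p = 0.0806), and without sham blood replicate 1 edgeR called it too (-2.19, adjusted p = 0.0117). Its highest level was in sham blood replicate 1, where the 10 genes were at their lowest. Set against sham blood, 56 were tested in the brain, and 10 were lower and 10 higher, where 13.4% of all genes were called and 9.75% were called higher. The ADP receptor P2ry1, among the lower, and Tbxas1 and Srgn, among the higher, were not called against stroke blood.

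Over the 6 blood libraries, the genes outside the 10 whose log2(CPM + 0.5) followed the mean of the 10 most closely were Clu (Pearson r = 0.9998), Clec1b (0.9989), Mpig6b (0.9976), Esam (0.9973), Slamf1 (0.9952), Myl9 (0.9939), Fhl1 (0.9935), Nrgn (0.9932), Vwf (0.9919) and Mylk (0.9918), of 8753 genes ranked. These 6 points share the low value of sham blood replicate 1, and over the other 5 libraries r was 0.9989 for Clu, 0.9843 for Clec1b and 0.8956 for Fhl1, so the values describe a likeness and are no test. Of these 10 genes 7 belong to the platelet lists. Mpig6b, an inhibitory receptor of platelets and megakaryocytes that the lists did not hold, was at 0.681 CPM in sham blood replicate 1, 7.12 to 15.9 CPM in the other blood libraries and 0.0154 CPM on average in the brain. Clu kept 200, 213 and 74 counts in the brain, where Tubb1 and Alox12 had at most 2.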

How the data were processed

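RNA of sorted monocytes/macrophages was measured in 9 libraries, 3 per group; groups and replicate numbers come from the sample titles. Replicates are separate mice or separate pools of mice. The authors made cDNA with the SMART-Seq HT kit and Nextera XT, aligned paired reads against GRCm38 using HISAT2, and took gene counts from HTSeq. These counts were deposited raw, without normalization. Strand setting, annotation release and software versions are not given in the sources used here. Totals were 18475118 to 22623578 counts per library. CPM is counts per 1000000 of that total, and CPM per kilobase divides it by the exon length in GENCODE M21. File starts count from 0 and were raised by 1.

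Groups were compared by pairs in edgeR 4.0.16 (R 4.3.3; quasi-likelihood test, TMM, default filter on low counts), with Benjamini-Hochberg adjustment over all genes tested, and a gene was called where the adjusted p was below 0.05 and the log2 fold change was beyond -1 or 1. DESeq2 1.42.0 was an alternative, as were other scalings, filters, fits, thresholds and the omission of each library. The standard error is the log2 fold change over the square root of F. A fold against a group with at most 3 counts in each library is a bound against 3 counts per library. On simulated data with 200 changed genes the test was checked before use. Tables were made with pandas 2.3.3, numpy 2.4.6 and scipy 1.17.1 under Python 3.11.15, and figures with matplotlib 3.10.9.

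The 10 genes, the platelet lists and the marker lists were chosen with earlier results of these data known. Named are the 10 genes, platelet list genes called in any comparison or set beside a member for their role, marker genes whose values touch a result, and the 10 genes most like the mean of the members over 6 blood libraries (mean of at least 5 CPM). Counting intervals and the floor of 3 counts cover counting error only. Some genes of the platelet lists that the counts include are not reported here by name.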

Additional observations from a re-analysis of the deposited data

How the results depend on the processing

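Between brain and stroke blood, 9 of the 10 genes were called under each of the 12 other settings and 9 or 10 with 1 library left out, and the other platelet genes called numbered 25 to 28 with 1 library left out. Under other scalings the other platelet genes called were 9 higher and 19 lower with upper-quartile scaling (Cd9, Lat and Plek no longer called, F2rl2 and Rgs18 called lower) and 12 higher and 15 lower with library size only (F13a1 and Mylk no longer called), against 12 and 17. Of all calls, 62.6% were higher in the brain with TMM, 52.7% with upper-quartile scaling and 72.2% with library size only, where the median of all genes was 0.06, -0.09 and 0.22. Against sham blood those shares were 72.7%, 67.3% and 80.3%. At an adjusted p below 0.01 there were 2 of the 10 genes and 11 of the other platelet genes called against sham blood, against 8 and 20. With 1 library left out these counts ran from 2 to 9 and from 13 to 29; the cause was not tested.

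Between stroke and sham blood 0 of the 10 genes was called under any setting run. The other platelet genes called were 2 with DESeq2, 2 with DESeq2 without its Cook filter (chosen after seeing the data), 2 without a filter on low counts, and 0 to 1 with 1 library left out. Signs were unstable. Gp9 was at 0.01 and turned to -0.0399 with library size only and -0.0232 without a filter. With 1 library left out, the log2 fold changes ran from -0.31 to 1.03 (Pf4), -0.70 to 0.52 (Ppbp), -0.86 to 0.39 (Itga2b), -0.25 to 0.71 (Itgb3), -0.46 to 0.68 (Gp5), -0.79 to 0.53 (Gp6), -0.56 to 0.88 (Gp9), -1.09 to 0.0301 (Treml1), -0.79 to 0.29 (Tubb1) and -0.84 to 0.29 (Alox12), and against sham blood that of Pf4 in the brain ran from -1.04 to 0.31.

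Same-numbered libraries deviated from their group means with correlations of at most 0.0745, and differently numbered ones with correlations of up to 0.1167. With 3 libraries per group these values cannot show whether same-numbered libraries share more than a number. With the replicate number as a block, the counts called were 9, 0 and 6 of the 10 genes, and stroke over sham blood turned to 0.64 (Ppbp), 0.52 (Itga2b), 0.33 (Gp6), 0.15 (Treml1), 0.34 (Tubb1) and 0.32 (Alox12); Pf4, brain over sham blood, turned to 0.26 in this block.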
